A study of Arabidopsis thaliana with 4 samples.

Results

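Transcript levels of the histone H2B genes HTB1 (AT1G07790), HTB3 (AT2G28720) and HTB4 (AT5G59910) were compared between *eif3h* mutant and wild-type seedlings of *Arabidopsis thaliana*. The genes were taken by name, with earlier results of these data known. Each is represented by 1 probe set (261411_at for HTB1, 263412_at for HTB3 and 247652_at for HTB4) of the 22746 on the Affymetrix ATH1 array, without its 64 control probe sets. The annotation used here assigns each of these probe sets to 1 gene, HTB3 through its locus number only. HTB1 and HTB3 had higher signals in the mutant, 1.57-fold (95% confidence interval on the log2 scale 0.24 to 1.06) and 2.27-fold (0.56 to 1.81), as geometric means over 2 repeats. Both passed the test, but HTB3 was bright enough to be tested only through its signals in the mutant. HTB4 differed by 1.11-fold (-0.26 to 0.55), which did not pass. Another H2B gene, HTB11, had far lower signals in the mutant, but these lay below the lowest level tested, so its ratio is given only as a description.

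Histone H2B pairs with H2A, and such dimers join a core of H3 and H4 to form the nucleosome, the unit that packs DNA. Most H2B is made while DNA is copied, so that its transcripts are abundant in dividing cells such as those of shoot meristems and young leaf primordia. Plant H2B is encoded by many genes whose proteins are very much alike, and unlike the replication-dependent histone transcripts of animals, those of plants end in a poly(A) tail.

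The mutant carried *eif3h-1*, an insertion of T-DNA in the gene for the h subunit of translation initiation factor eIF3, from which a protein shortened at its carboxy terminus is made. It was set against the wild type, and both genotypes were grown for 10 days on agar plates with sucrose under continuous light. Total RNA of the aerial parts, scraped together from whole plates of seedlings, was hybridised to 2 mutant and 2 wild-type arrays, 1 of each genotype in each of 2 experimental repeats prepared on different days. Only 1 mutant allele was measured, and a value describes a pool of seedlings. In such bulk RNA, a change in the share of dividing cells and a change in transcript per cell cannot be told apart.

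The deposited value is the MAS 5.0 signal, a background-corrected intensity on a linear scale, scaled so that all arrays had a trimmed mean of 500.05. Since probes differ in how well they bind, signals were compared between arrays, and a difference between genes was not read as one in transcript level. Ranks by signal served only for the brightness filter and to place a probe set. The 9000 brightest probe sets by mean log2 signal entered a limma test on log2 signals. The repeat served as a block, and calls were made at a Benjamini-Hochberg adjusted p under 0.05. The lowest mean among them corresponds to a signal of 319. All 3 genes passed this filter, HTB1 and HTB4 with every array above that level. The mean of HTB3 in the wild type lay below it, so that HTB3 passed only through its higher signals in the mutant, and its call cannot be read apart from that. The transcript of eIF3h itself (TIF3H1, named through a list of genes that the study selected on these arrays) had signals of 245 and 432 in the mutant (repeats 1 and 2) and 1363 and 1021 in the wild type, and its log2 ratio was -1.86 with a standard error (SE) of 0.28 (limma adjusted p = 0.0075). Where this probe set lies relative to the insertion was not looked up. RCA, the gene of rubisco activase in green tissue, had signals of 28004.5 and 50782 in the mutant and 30586 and 58204 in the wild type, and ranked 10 among all probe sets. EXPA7, an expansin gene of root hairs, lay at 78.1 and 128 in the mutant and 61.8 and 72.2 in the wild type and was not tested. These were the only members of lists of 6 shoot and 6 root markers with a named probe set.

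HTB1 had signals of 1919 and 1628 in the mutant (repeats 1 and 2) and 1295 and 983 in the wild type. Both mutant arrays lay above both wild-type arrays, so the groups did not overlap. This was also so for 28.4% of all tested probe sets. Signals averaged 1773 ± 206 in mutant and 1139 ± 220 in wild-type seedlings (SD, n = 2 each), and the mutant was 1.48-fold higher in repeat 1 and 1.66-fold higher in repeat 2. On the log2 scale the ratio was 0.65 (SE 0.17, limma adjusted p = 0.0426), larger than that of 91.6% of the tested probe sets. The adjusted p lay close to the threshold, and was 0.0548 when each array was centred on its own median, where the ratio was 0.61. When any 1 array was left out, and with it the block, the log2 ratios were 0.45 to 0.85. Part of the repeat difference enters such ratios.

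HTB3 had signals of 769 and 441 in the mutant and 501 and 131 in the wild type. The groups overlapped, because the mutant of repeat 2 lay below the wild type of repeat 1, whereas within each repeat the mutant was the higher. The difference was unequal between the repeats, 1.53-fold in repeat 1 and 3.36-fold in repeat 2. Its mean log2 ratio was 1.18 (SE 0.27, limma adjusted p = 0.0259), above that of 98.6% of the tested probe sets. Signals averaged 605 ± 232 in mutant and 316 ± 262 in wild-type seedlings (SD, n = 2 each), so without regard to the repeats the spread within a genotype was nearly as large as the difference. Arrays were also left out in turn, again with no block. Such a fit sets both arrays of 1 genotype against 1 of the other, so part of the repeat difference enters the ratio. Without the wild type of repeat 2 the log2 ratio was 0.22, against 0.62 within repeat 1 alone. The signal of 131 on that array was the lowest of the 4 and below the lowest tested mean. Without the wild type of repeat 1 the log2 ratio was 2.15, against 1.75 within repeat 2 alone. Leaving out the mutant of repeat 1 or of repeat 2 gave 0.78 and 1.58.

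HTB4 had signals of 2489 and 1751 in the mutant and 2191 and 1623 in the wild type. The mutant was higher within each repeat, by 1.14-fold and 1.08-fold, but the groups overlapped. Signals averaged 2120 ± 522 in mutant and 1907 ± 402 in wild-type seedlings (SD, n = 2 each). Its log2 ratio of 0.15 (SE 0.17, limma adjusted p = 0.579) was above that of 59.9% of the tested probe sets. The confidence interval of -0.26 to 0.55 left room for a modest difference in either direction. The ratio was -0.11 without the mutant of repeat 1 and -0.07 without the wild type of repeat 2. Those fits had no block and so took in part of the repeat difference, whereas within each repeat the log2 ratio was positive (0.18 and 0.11).

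**Figure D1:**
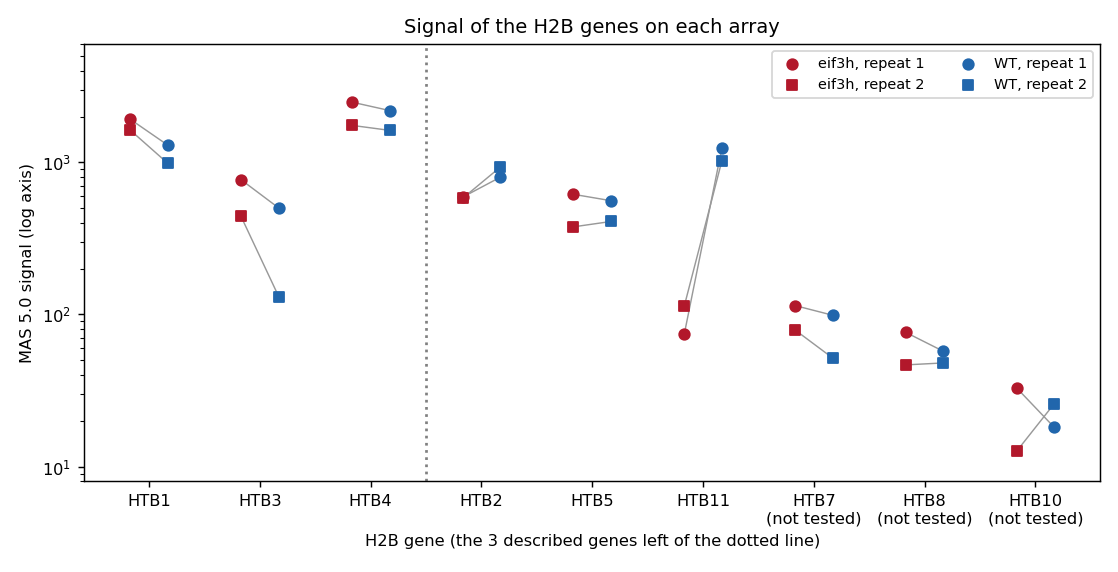
MAS 5.0 signals (log axis) of the H2B genes with a named probe set on the 2 *eif3h* mutant arrays (red) and the 2 wild-type arrays (blue), with circles for repeat 1, squares for repeat 2 and a line joining the arrays of a repeat. HTB1, HTB3 and HTB4, left of the dotted line, were higher in the mutant within each repeat, whereas HTB11 had signals of 74.0 and 113 in the mutant and 1240.2 and 1024 in the wild type.

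Of the 3 genes, 2 were called higher in the mutant and 0 lower, against 8.39% of all tested probe sets called higher and 9.59% called lower. HTB3 was tested only through its higher signals in the mutant, so this count is no more than a description. All 3 were higher in the mutant in both repeats, which held for 40.0% of the tested probe sets. Their median log2 ratio was 0.65, against 0.03 over all tested probe sets. The 3 genes were chosen with earlier results of these data known, so these values are descriptions too. Over the 6 tested H2B probe sets, 3 were higher in both repeats and the median was 0.08. The median of the 3 genes was 0.22 without the wild type of repeat 2, a fit with no block. It was 0.40 among the 5000 brightest probe sets, which do not include HTB3. Neither call held without the block (limma adjusted p = 0.214 for HTB1 and 0.338 for HTB3) or when all probe sets were tested (0.432 and 0.438). None of the 3 genes met the methods' own rule for a change, by which both ratios, or a mean with a small SD, must exceed 2-fold. The mean of HTB3 exceeded it, but its ratio in repeat 1 did not, and its SD of 0.80 on the log2 scale was more than the rule allows.

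The measured log2 ratios of the 3 genes differed in size. The log2 ratio of HTB3 exceeded that of HTB4 by 0.43 in repeat 1 and by 1.64 in repeat 2. HTB1 exceeded HTB4 by 0.38 and 0.62, and so the order of these ratios was the same in both repeats. In contrast, HTB3 and HTB1 were nearly alike in repeat 1, where they differed by 0.05, and stood apart by 1.02 in repeat 2. No test was run on these differences between genes.

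**Figure D2:**
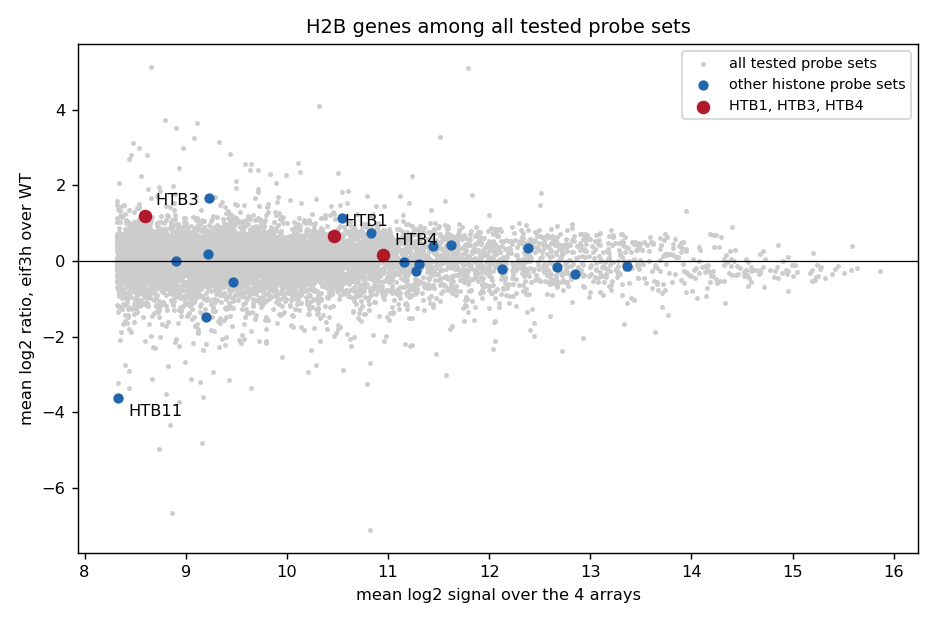
Mean log2 ratio of signals, *eif3h* mutant over wild type, against the mean log2 signal over the 4 arrays for the 9000 tested probe sets (grey), with HTB1, HTB3 and HTB4 in red and other histone probe sets in blue. HTB3 lay at 1.18, HTB1 at 0.65 and HTB4 at 0.15, and HTB11 lay at -3.62 near the low end of the tested signals.

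The H2B signals also differed between the repeats, a comparison added after the values had been seen. In both genotypes all 3 genes were lower in repeat 2 than in repeat 1, as were 34.1% of the tested probe sets. For HTB3 the log2 difference, repeat 2 minus repeat 1, was -0.80 in mutant and -1.94 in wild-type seedlings, and their mean of -1.37 (SE 0.27) passed in limma with an adjusted p of 0.0497. This lay close to the threshold. The wild-type signal of 131 in repeat 2, below the lowest tested mean, enters both this difference and the genotype ratio of HTB3. Only 1.37% of the tested probe sets were called lower in repeat 2. HTB1 differed by -0.32 (adjusted p = 0.321) and HTB4 by -0.47 (adjusted p = 0.165). For HTB3 and HTB4 the difference between repeats was larger in size than that between genotypes, though no test compared the 2. Both arrays of a repeat shared a handling day and a scanner that the other repeat did not, so that growth, day and scanner cannot be told apart.

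Elsewhere in the H2B family the genes did not move together. Of 8 further H2B genes, 6 had a named probe set (none was found for HTB6 and HTB9), and 3 of these were bright enough to be tested. HTB11 had signals of 74.0 and 113 in the mutant and 1240.2 and 1024 in the wild type. Its groups lay far apart. HTB11 ranked 8951 by mean signal and passed the filter only through its wild-type level, so that among tested probe sets it had to differ. Its fitted log2 ratio of -3.62 (SE 0.24, limma adjusted p = 0.00036) is therefore given as a description. Both of its mutant signals lay below the lowest tested mean, and detection calls were not used here, so that its level in the mutant is uncertain.

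HTB2 had signals of 590.2 and 580.1 in the mutant and 799 and 931 in the wild type. Its groups did not overlap, though the share of tested probe sets with both mutant arrays below both wild-type arrays was not counted. The log2 ratio of -0.56 (SE 0.18) had a limma adjusted p of 0.0672 and was not called. HTB5 had signals of 616 and 377 in the mutant and 559 and 409 in the wild type, and was higher in the mutant in repeat 1 but lower in repeat 2, with a log2 ratio of 0.01 (adjusted p = 0.971) whose sign changed with the scaling of the arrays. HTB7, HTB8 and HTB10 had signals of at most 114 on all arrays and were not tested. Of the 6 tested H2B probe sets 2 were called higher, 1 lower and 3 not called, against 8.39% called higher and 9.59% called lower among all tested. HTB3 and HTB11 entered this count through the genotype in which they were high, so it is no more than a description. Because H2B genes are so alike in sequence, a probe set may also bind transcripts of a related gene, and the share of such binding was not tested.

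The partners of H2B in the nucleosome were followed next. Among H2A genes only HTA9, which encodes the variant H2A.Z, had a named probe set, out of 13 genes on the list. HTA9 could be named only through the gene lists of the study. It lay at 4455 and 3923 in the mutant and 5344 and 4333 in the wild type, with a log2 ratio of -0.20 (limma adjusted p = 0.436). The groups overlapped, and HTA9 was not called.

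For H3.1, the form of H3 laid down during replication, 5 probe sets were found, each annotated to the same 5 genes, and they are given by probe set ID. The probe set 250434_at had signals of 2303 and 2113 in the mutant and 1050 and 975 in the wild type. Its groups did not overlap and its log2 ratio was 1.12 (SE 0.17, limma adjusted p = 0.00761), which did not pass without the block (0.0709) or with any 1 array left out (0.109 to 0.245). The probe sets 247192_at and 264262_at were not called (0.42 and -0.03). In the opposite direction, 250433_at lay at 123 and 101 in the mutant and 864 and 777 in the wild type, and 257714_at at 179 and 78.9 in the mutant and 593 and 529 in the wild type. Both were far lower on each mutant array than on each wild-type array, but their means fell outside the brightness filter and they were not tested. For H3.3, the replacement form found at transcribed genes, 3 probe sets gave log2 ratios of -0.36 (252849_at), -0.14 (252824_at) and 0.34 (250397_at), and none was called. The other 5 probe sets of H3 genes, among them that of HTR12, which encodes the centromeric H3, were too dim to be tested.

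For H4, 5 probe sets were each annotated to the same 8 genes. The probe set 261408_s_at lay at 2701 and 2053 in the mutant and 1709 and 1153 in the wild type (log2 ratio 0.75, SE 0.18, limma adjusted p = 0.0288). In contrast, 252562_s_at lay at 506 and 246 in the mutant and 1347 and 716 in the wild type (-1.48, SE 0.17, adjusted p = 0.00306). Neither pair of groups overlapped, though the share of tested probe sets for the lower direction was not counted. Probe sets annotated to 1 and the same set of H4 genes were thus called in opposite directions. Neither call held without the block (adjusted p = 0.219 for 261408_s_at and 0.158 for 252562_s_at) or in any fit that left out 1 array. The ratio of 261408_s_at was 0.46 without the wild type of repeat 2, and that of 252562_s_at was -0.96 without the mutant of repeat 2. Such fits have no block, so part of the repeat difference enters the ratio, but both ratios kept their sign in all of them. The remaining 3 were not called and lay at -0.26, -0.15 and 0.19.

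Of the linker histones, which bind DNA between nucleosomes, H1.3 is known as a variant induced by stress such as drought. H1.3 had signals of 1418 and 802 in the mutant and 488 and 231 in the wild type. Both mutant arrays lay above both wild-type arrays, and the log2 ratio was 1.67 (SE 0.18, limma adjusted p = 0.00225). It did not pass without the block (limma adjusted p = 0.123). The ratio was 1.13 without the wild type of repeat 2, again with no block, against 1.54 within repeat 1 alone. H1.1 (0.40) and H1.2 (-0.07) were not called.

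**Figure D3:**
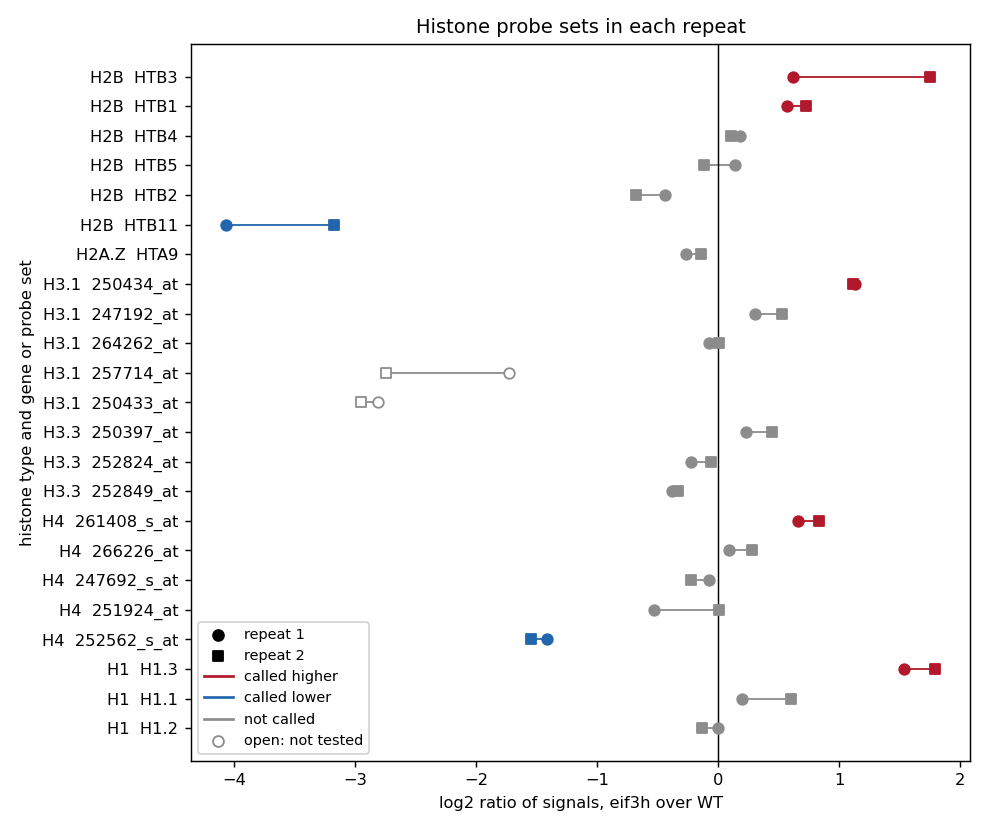
Log2 ratio of signals, *eif3h* mutant over wild type, in repeat 1 (circles) and repeat 2 (squares) for the histone genes and probe sets that were tested and for 2 untested H3.1 probe sets (open symbols), in red where called higher, blue where called lower and grey where not called. Calls in both directions occur within H4. Within H2B the only lower call is that of HTB11, which was tested only through its wild-type level. Among the called probe sets HTB3 and HTB11 show the widest gaps between the repeats.

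Over all core and linker histones, 21 of 31 probe sets were tested, of which 5 were called higher, 2 lower and 14 not called, with a median log2 ratio of 0.01. Among all tested probe sets 8.39% were called higher and 9.59% lower. Of the 7 called histone probe sets, HTB3 and HTB11 were tested through the genotype in which they were high, so this count is a description. Without HTB1, HTB3 and HTB4 there were 3 higher and 2 lower among 18 tested probe sets, and the median was -0.05. The median over all tested probe sets was 0.03. Without the block, only HTB11 of the 7 called histone probe sets passed.

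Genes that act on H2B or with it were covered only in part by the annotation. NAP1;3, a nucleosome assembly protein of the family that carries H2A-H2B dimers, had signals of 888 and 651 in the mutant and 347 and 339 in the wild type, and its groups did not overlap. Its log2 ratio was 1.15 (SE 0.19, limma adjusted p = 0.00928, and 0.0895 without the block), but it could be named only through the list that the study selected on these arrays, so it is no independent evidence of a direction. ASF1A (0.44) and ASF1B (-0.08), which carry H3-H4, were not called, and the other 10 of 13 chaperone genes had no named probe set. Of 8 genes for the addition of ubiquitin to H2B and its removal, UBP22 and UBP26, both of which remove it, had a probe set and neither was bright enough to be tested.

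Markers of dividing cells were looked at beside these values, since they mark the cells in which H2B is mostly made. Only 2 of 22 S phase genes and 2 of 13 genes of G2 and mitosis had a named probe set. MCM7, a subunit of the replicative helicase, lay at 482 and 623 in the mutant and 390 and 632 in the wild type, with a log2 ratio of 0.14 (adjusted p = 0.609). The Aurora kinase genes AUR1 and AUR2 had log2 ratios of 0.05 (adjusted p = 0.903) and 0.12 (adjusted p = 0.665). None of the 3 was called, and ICU2, the catalytic subunit of DNA polymerase alpha, was too dim to be tested. ICU2 lay at 205.5 and 198.5 in the mutant and 160.6 and 132.4 in the wild type, higher in the mutant in both repeats. With so few of these genes measured, the part of cell division in the H2B values was not tested.

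Finally, tested probe sets with 1 gene were ordered by how much their pattern over the 4 arrays resembled the mean pattern of HTB1, HTB3 and HTB4, measured as the Euclidean distance between centred log2 signals. Among 4564 candidates the nearest were AT2G23940 (distance 0.032), AT2G35120 (0.0892), NQR (0.0938), EMB2786 (0.112) and AT2G23120 (0.134). Their log2 ratios lay between 0.59 and 0.71, and they were lower in repeat 2 in both genotypes. Both traits follow from choosing genes by this pattern and are no separate finding. AT2G23940, the nearest, had signals of 1172 and 809 in the mutant and 870 and 450.1 in the wild type. The 3 H2B genes themselves stood farther from their own mean pattern. HTB1 lay at a distance of 0.420, with 123 candidates nearer than it, HTB4 at 0.618 with 475 nearer, and HTB3 at 0.911 with 1571 nearer. For each of the 3, at least 123 other genes thus lay nearer to the mean pattern. A pattern over 4 arrays holds little more than a genotype and a repeat difference.

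**Figure D4:**
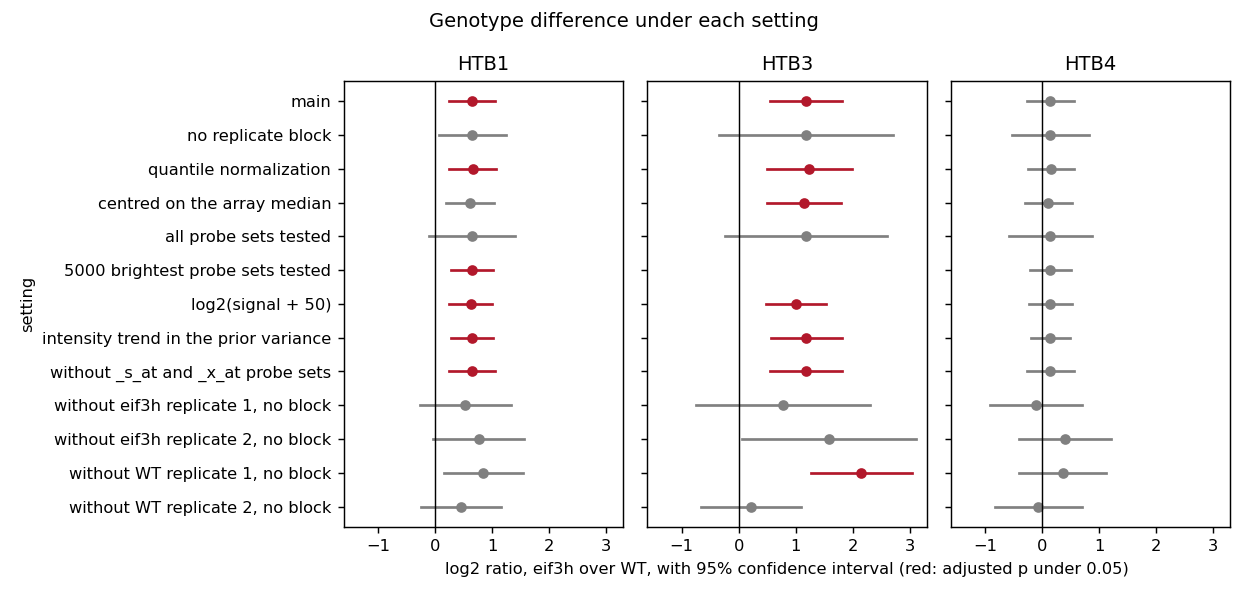
Log2 ratio, *eif3h* mutant over wild type, of HTB1, HTB3 and HTB4 under each way of processing, with 95% confidence intervals from limma and red where the adjusted p was under 0.05 (HTB3 is not among the 5000 brightest probe sets). Without wild-type replicate 2 the value of HTB3 is 0.22, against 1.18 with all arrays, and the values of HTB1 lie between 0.45 and 0.85 when 1 array is left out. Fits that leave out 1 array have no block, so part of the repeat difference enters their values.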

How the data were processed

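Total RNA of aerial seedling parts was measured on 4 ATH1 arrays. The deposited values are MAS 5.0 signals, a linear intensity that the authors background-corrected and scaled with Affymetrix software. The genome build behind the probe sets is not given in the sources used here. The 9000 brightest of 22746 probe sets were fitted as log2 signals with lmFit and eBayes of limma 3.58.1 in R 4.3.3, on repeat and genotype, which leaves 1 residual and 6.50 prior degrees of freedom. The script was tested on simulated data. Same-numbered arrays shared a handling day and a scanner, and changes between repeats correlated across probe sets between the genotypes (r = 0.530), so the repeat was a block. Ignoring it, an exact two-sided permutation test of 2 against 2 cannot go below p = 0.333. The number of arrays limits the precision. The p-values rest on how much the genotype difference varied between the 2 repeats. With 1 residual against 6.50 prior degrees of freedom, most of that error is drawn from all tested probe sets.

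Platform annotation gave 13513 probe sets 1 gene and 503 several. A further 364 were named only through the study's gene lists (HTA9, NAP1;3 and TIF3H1 here), and 8366 were unnamed. Named genes are HTB1, HTB3 and HTB4, all other H2B genes, up to 4 called members of each other list (or its 2 brightest), 5 genes of like pattern and TIF3H1. Untested histone probe sets and further list members are named beyond this rule, after their values were seen. Members and lists were chosen with earlier results of these data known. Summaries and plots used Python 3.11.15 with pandas 2.3.3, numpy 2.4.6, matplotlib 3.10.9 and scipy 1.17.1. Sequences and coordinates are not given here.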

Additional observations from a re-analysis of the deposited data

How the results depend on the processing

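HTB1, HTB3 and HTB4 kept a higher level in the mutant under quantile normalization, median centring and an offset added to the signals. With all 4 arrays, changes of filter or model could not alter these ratios. The calls were less stable. Without the replicate block the log2 ratios were the same by construction, but adjusted p was 0.214 for HTB1 (0.65), 0.338 for HTB3 (1.18) and 0.0664 for TIF3H1 (-1.86), and with all probe sets tested it was 0.432 (0.65), 0.438 (1.18) and 0.414 (-1.86). HTB1 missed the threshold after centring on the array median (0.61, adjusted p = 0.0548), and neither HTB1 (0.65) nor HTB3 (1.18) met the methods' 2-fold rule. HTB3 was not among the 5000 brightest probe sets, where HTB2 was called (-0.56, adjusted p = 0.0393). Fits that left out 1 array had no block, since it would leave no residual degree of freedom. They assume that the lone array of a genotype varies like the other, and part of the repeat difference enters their ratios. They gave 0.45 to 0.85 for HTB1, 0.22 to 2.15 for HTB3, -0.11 to 0.40 for HTB4 (-0.070 without wild-type replicate 2) and -2.27 to -1.45 for TIF3H1. Sign changes among genes that were not called came for HTB5 with quantile normalization (-0.0048), with median centring (-0.027) and over -0.34 to 0.37 with 1 array left out, and with 1 array left out for 252824_at (-0.39 to 0.11), MCM7 (-0.21 to 0.49) and AUR1 (-0.17 to 0.26).

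The number of calls depended on the block and the filter. Against 755 higher and 863 lower, there were 15 and 72 without the replicate block, 184 and 339 by the methods' 2-fold rule, and 15 to 40 and 44 to 129 with 1 array left out. Testing all probe sets in limma called 0 higher and 0 lower, with 2683 at an unadjusted p under 0.05. Of the histone probe sets 7 were called, against 1 without the block, 0 with all probe sets, 4 among the 5000 brightest, 4 by the 2-fold rule and 1 to 3 with 1 array left out.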

Other observations

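The genes next to HTB1, HTB3 and HTB4 on the chromosome, 5 protein-coding genes to each side in the TAIR10.1 order, were looked up after the values above had been seen. An H4 gene (AT1G07820) lies 3 places from HTB1, another (HIS4) 2 places from HTB3, and the H2A gene HTA6 lies 5 places from HTB4, but none of them had a probe set assigned to it alone. Of the neighbours of HTB1, 3 were tested, of which AT1G07750 was called higher in the mutant (log2 ratio 1.02, limma adjusted p = 0.0125) and AT1G07830 (0.59, adjusted p = 0.0563) and RPS15A (-0.11, adjusted p = 0.701) were not called. Of those of HTB4, 3 were tested and none was called, with log2 ratios of 0.19 to 0.43. Of the 10 neighbours of HTB3, 6 had a named probe set and none of these was bright enough to be tested.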
